A study of Homo sapiens with 6 samples.

Results

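The small nuclear RNAs (snRNAs) U11, U12, U4atac and U6atac of the minor spliceosome and U7 of histone pre-mRNA processing were examined in K562 cells upon RUNX1 over-expression. The members were chosen by name, as the entries RNU11, RNU12, RNU4ATAC, RNU6ATAC and RNU7-1 among the 28846 small RNAs that each of the 6 count tables lists, 1903 of them snRNA entries. Of the 5 names, 4 were used and RNU4ATAC was not analysed here. RNU11, RNU12 and RNU7-1 had enough counts to be tested, and RNU6ATAC had 14 counts in all samples together and was not. K562 is an erythroleukemia cell line. The 3 control samples were transduced with the lentiviral vector SIEW, which expresses GFP only, and the 3 RUNX1 samples with SIEW RUNX1, which expresses human RUNX1 and GFP. All cells were kept for 10 days in culture before total RNA was taken, and the study describes independent transductions. The level of RUNX1 itself was not analysed here, since only small RNAs were counted.

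Most introns of human genes are removed by the major spliceosome, which contains the U1, U2, U4, U5 and U6 snRNAs. A small class of introns is removed by the minor spliceosome instead. There U11 recognizes the 5′ splice site and U12 the branch point, both within one particle, the U11/U12 di-snRNP. U4atac delivers U6atac, which forms the catalytic centre together with U12, and U5 is shared by both spliceosomes. U7 takes no part in splicing. It base-pairs with replication-dependent histone pre-mRNAs and directs the cut that forms their 3′ end.

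The RNAs are shown here because they differ in length and in the letters at which their core proteins assemble. The sequences and coordinates are those of the GENCODE 29 annotation on GRCh38, given 5′ to 3′ with T for U. Capitals mark the letters searched in each RNA, ATTTTTG or ATTTTTTG as Sm-type letters and AATTTGTC as the U7-type letters.
RNU11: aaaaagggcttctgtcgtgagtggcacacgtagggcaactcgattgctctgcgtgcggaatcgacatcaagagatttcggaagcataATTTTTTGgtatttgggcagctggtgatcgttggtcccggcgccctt
RNU12: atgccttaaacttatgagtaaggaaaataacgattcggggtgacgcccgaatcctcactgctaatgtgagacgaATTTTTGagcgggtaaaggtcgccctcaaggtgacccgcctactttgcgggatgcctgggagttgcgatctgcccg
RNU6ATAC: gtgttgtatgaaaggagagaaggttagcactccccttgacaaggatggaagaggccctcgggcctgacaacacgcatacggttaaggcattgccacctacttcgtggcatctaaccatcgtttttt
RNU7-1: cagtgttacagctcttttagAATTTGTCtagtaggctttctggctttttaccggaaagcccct
RNU11 is 134 nt long and lies on the plus strand at chr1:28648600-28648733. It holds ATTTTTTG once, from base 88, and this longer form was added to the search after the sequence had been read. RNU12, 150 nt long, lies on the plus strand at chr22:42615244-42615393 and holds ATTTTTG once, from base 75. RNU6ATAC is 126 nt long, lies on the minus strand at chr9:134164439-134164564 and holds none of the 3 motifs. U6-type RNAs are known to bind Lsm proteins at their 3′ end and not the Sm ring. RNU7-1 is the shortest, with 63 nt on the plus strand at chr12:6943816-6943878, and holds AATTTGTC once, from base 21. At these letters U7 is known to bind a ring in which Lsm10 and Lsm11 replace a pair of Sm proteins. A match of letters is a description and not a measured binding.

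At each locus but that of RNU6ATAC, the annotation lists further genes. RNU11 shares 131 bases with an exon of the lincRNA AL360012.1, and RNU12 shares all 150 bases with an exon of the lincRNA Z93241.1, both on the same strand. RNU7-1 lies within the protein-coding gene C12orf57 on the same strand, sharing 62 bases with an exon of one of its transcripts, and opposite to the antisense gene U47924.2. The count tables hold names without coordinates, and how reads in overlapping genes were assigned is not given in the sources used here.

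The total counts ranged from 1618248 to 6193319 in control and from 7918551 to 15245007 in RUNX1 samples. Between replicates of a group the chi-square per degree of freedom was 11.2 to 545, more than sampling noise gives, and each replicate was counted as 1 sample. The snRNA entries together held 0.241% ± 0.0114 of all counts of a control sample and 0.115% ± 0.0294 of a RUNX1 sample (SD, n = 3 per group), while microRNAs held 81.8% ± 0.396 and 90.9% ± 1.23. Levels are given as CPM, the counts relative to the library size after scaling by edgeR's TMM factors, which averaged 1.28 in control and 0.786 in RUNX1 samples. TMM assumes that most small RNAs are not altered. Calls needed a P-value under 0.05 in edgeR's test and a log2 fold change of 0.5 or more in either direction. By this rule 57.6% of the 947 tested small RNAs were altered, 28% up-regulated and 29.6% down-regulated, and in 64.8% the CPM of the 2 groups did not overlap. By these calls the assumption of TMM was not met. The library names hold one letter for control and another for RUNX1. Should the letters stand for preparations, these and the condition cannot be told apart.

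Upon RUNX1 expression the 3 tested members did not move together. RNU12 was up-regulated 1.86-fold, RNU7-1 was down-regulated 3.21-fold, and RNU11, the partner of RNU12 in the di-snRNP, did not pass the test. Thus 2 of the 3 tested members were altered, 1 in each direction, beside 57.6% of all tested small RNAs. A share of 3 members is too coarse to set them apart from that background.

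RNU12, which base-pairs with the branch point, had 665, 2708 and 2301 counts in control replicates 1, 2 and 3, and 8101, 3462 and 3589 counts in RUNX1 replicates 1, 2 and 3. Its CPM was 318, 336 and 303 in control samples and 703, 554 and 524 in RUNX1 samples. In these TMM-scaled values the lowest RUNX1 sample lay above the highest control sample. The mean rose from 319 ± 16.6 to 593 ± 95.8 CPM (SD, n = 3 per group), with a log2 fold change of 0.90 (SE 0.147, adjusted p = 0.000711, edgeR's quasi-likelihood test, Benjamini-Hochberg). With the library size alone as scaling, the log2 fold change of RNU12 was 0.19 (SE 0.145), the groups overlapped and the call was lost. That scaling moved the median of all tested small RNAs from -0.06 to -0.76. In bulk RNA a change in the number of cells that hold an RNA and a change in its amount per cell cannot be told apart.

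RNU11, which base-pairs with the 5′ splice site, had 335, 1506 and 1243 counts in control and 957, 569 and 1455 counts in RUNX1 replicates. This gave 160, 187 and 164 CPM in control samples and 83.0, 91.0 and 212 CPM in RUNX1 samples. RUNX1 replicates 1 and 2 lay below every control sample and replicate 3 lay above every control sample, so that the groups overlapped. The means were 170 ± 14.5 and 129 ± 72.5 CPM (SD, n = 3 per group), and the log2 fold change of -0.41 (SE 0.32, 95% interval -1.14 to 0.32, adjusted p = 0.308, edgeR's quasi-likelihood test) was not called. The value rests on RUNX1 replicate 3. Without it the log2 fold change of RNU11 was -0.89 (SE 0.115) and RNU11 was called down-regulated. That fit called 612 of 969 tested small RNAs, compared with 545 of 947 with all samples. Replicate 3 also differed beyond RNU11: snRNA entries held 0.149% of its counts, and 0.104% and 0.0932% in RUNX1 replicates 1 and 2. RNU11 was also called with the library size alone as scaling, at -1.06 (SE 0.39).

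RNU7-1 had 140, 551 and 516 counts in control and 164, 107 and 223 counts in RUNX1 replicates. The CPM of the control samples, 67.0, 68.4 and 67.9, were close to each other. The RUNX1 samples had 14.2, 17.1 and 32.5 CPM, all below the control samples and with replicate 3 the highest. The mean fell from 67.8 ± 0.732 to 21.3 ± 9.85 CPM (SD, n = 3 per group), a log2 fold change of -1.68 (SE 0.278, adjusted p = 0.000734, edgeR's quasi-likelihood test). RNU7-1 was called down-regulated under each alternative that was run. Relative to the mean of RUNX1 replicates 1 and 2, replicate 3 had 2.08 times the CPM of RNU7-1 and 2.44 times that of RNU11, but 0.834 times that of RNU12.

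RNU6ATAC, which replaces U6 in the catalytic centre, was close to the limit of detection. It had 1, 6 and 1 counts in control and 3, 1 and 2 counts in RUNX1 replicates, in libraries where 3 counts correspond to 0.26 to 1.43 CPM. A difference between the groups was not detectable at this depth, and no fold change is given.

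**Figure D1:**
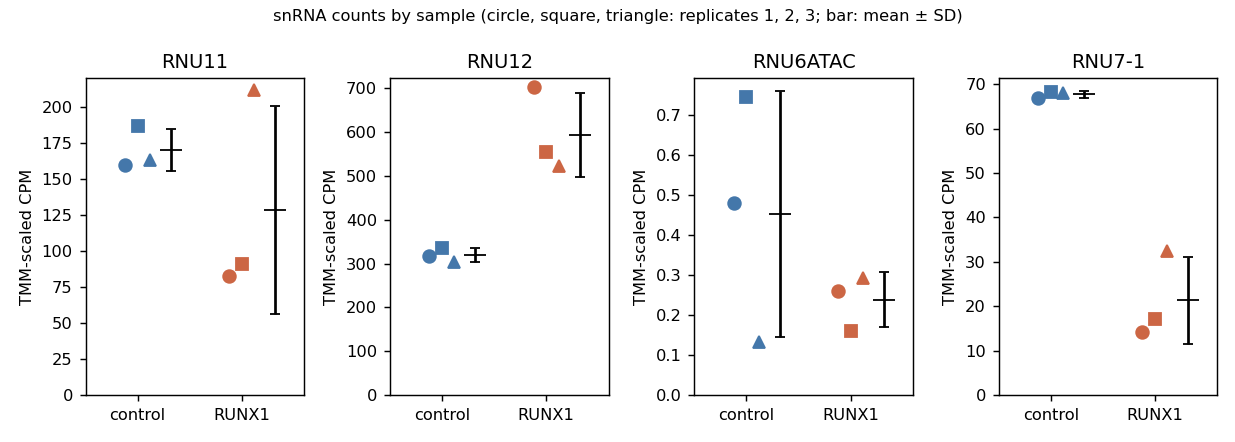
TMM-scaled CPM (y axis, linear, from 0, with its own range in each panel) of RNU11, RNU12, RNU6ATAC and RNU7-1 in the 3 control and 3 RUNX1 samples; circles, squares and triangles are replicates 1, 2 and 3, and bars show mean ± SD. The groups are apart for RNU12 and RNU7-1, whereas RUNX1 replicate 3 of RNU11 lies at 212 CPM, above all control samples, and the points of RNU6ATAC stand for 1 to 6 counts.

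To compare levels between the RNAs, the CPM were divided by the length of each RNA. In control samples RNU12 had 213 ± 11.03 CPM per 100 nt, RNU11 127 ± 10.8, RNU7-1 108 ± 1.16 and RNU6ATAC 0.358 ± 0.244 (SD, n = 3 per group). In RUNX1 samples the level per 100 nt was 396 ± 63.9 CPM for RNU12, 96.1 ± 54.1 for RNU11, 33.8 ± 15.6 for RNU7-1 and 0.188 ± 0.0547 for RNU6ATAC. The order was the same in both groups. RNU11 and RNU7-1 were neighbours whose mean ± SD overlapped in RUNX1 samples but not in control. Within each sample of both groups, however, the level of RNU11 per 100 nt was above that of RNU7-1. Libraries of small RNA read fragments or short RNAs of a limited size, so that these levels do not count whole snRNAs.

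RNU12 had the most counts of all snRNA entries over the 6 samples. It was second in each control sample, behind RNU5E-1, and first in each RUNX1 sample. RNU12 took 16.9% ± 0.969 of the snRNA counts in control samples and 41.8% ± 10.5 in RUNX1 samples (SD, n = 3 per group). The share of RNU11 was 9.01% ± 0.565 in control and 8.53% ± 3.37 in RUNX1 samples, and RNU11 had rank 3 among the snRNA entries in each control sample and rank 5, 5 and 4 in RUNX1 replicates 1, 2 and 3. RNU7-1 took 3.59% ± 0.0985 and 1.43% ± 0.434 of the snRNA counts. The 4 members used together took 29.5% ± 1.44 of the snRNA counts in control and 51.7% ± 6.76 in RUNX1 samples. The snRNA counts themselves fell from 0.241% to 0.115% of all counts, so that a larger share of them does not show a rise in level. Scaled by the library size alone, RNU12 had a log2 fold change of 0.19 (SE 0.145).

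**Figure D2:**
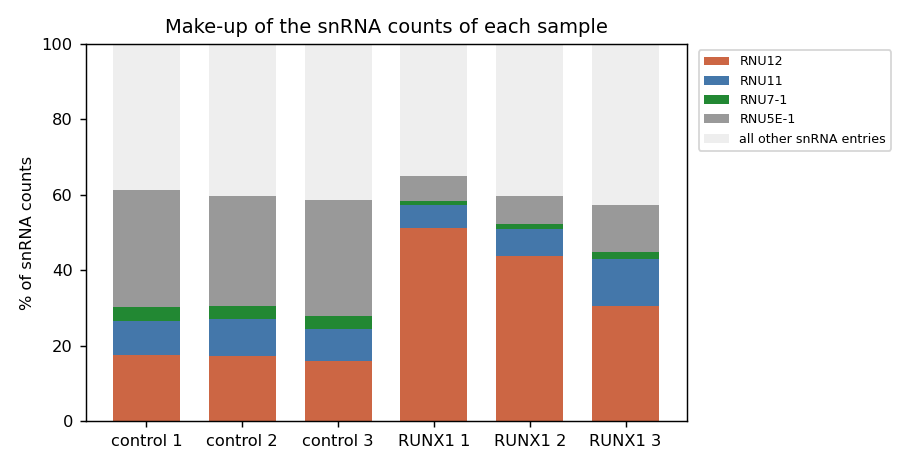
Make-up of the snRNA counts of each sample, in percent (y axis, 0 to 100), as stacked bars for RNU12, RNU11, RNU7-1, RNU5E-1 and all other snRNA entries; each bar is 1 sample. RNU12 takes a larger part in every RUNX1 sample than in any control sample, and RNU5E-1 a smaller part. The snRNA counts were 0.241% of all counts in control and 0.115% in RUNX1 samples.

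The counts of 2 RNAs in the same sample can be compared without scaling the libraries. U11 and U12 act as one particle, and their counts gave a ratio of RNU12 to RNU11 of 1.99, 1.798 and 1.85 in control replicates 1, 2 and 3. In the RUNX1 replicates the ratio was 8.46, 6.08 and 2.47. All RUNX1 samples lay above all control samples, and replicate 3 was the nearest to the control. On the log2 scale the ratio was 0.91 ± 0.0733 in the control group and 2.33 ± 0.921 in the RUNX1 group (SD, n = 3 per group), which differed by 1.42 or 2.68-fold (two-sided exact permutation test, p = 0.1). This is the smallest p that 3 samples against 3 allow, so that a p under 0.05 could not be reached. The adjusted p over the 3 ratios tested was 0.1 for each (exact permutation test).

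RNU7-1 relative to the summed minor spliceosome snRNAs was 0.140, 0.131 and 0.146 in control and 0.0181, 0.0265 and 0.0442 in RUNX1 replicates. The groups did not overlap. The log2 ratio fell from -2.85 ± 0.0793 to -5.17 ± 0.646 (SD, n = 3 per group), a 5.003-fold difference (two-sided exact permutation test, p = 0.1).

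The summed minor spliceosome snRNAs, nearly all of them RNU11 and RNU12 counts, were also set against the summed snRNA genes of the major spliceosome. Over all samples a listed U1 gene had at most 2 counts and a listed U6 gene at most 21. The major sum was thus nearly all U2, U4 and U5 counts, and U5 serves both spliceosomes. Its U2 counts were those of RNU2-2P, 4560 over all samples. The U2 pseudogene RNU2-59P, with 5146 counts, was not on the list. The ratio therefore does not compare whole spliceosomes. Minor over major counts gave 0.489, 0.518 and 0.463 in control and 2.01, 1.57 and 1.28 in RUNX1 replicates. Again the groups did not overlap. The log2 ratio was -1.03 ± 0.0804 in the control group and 0.67 ± 0.323 in the RUNX1 group (SD, n = 3 per group), a 3.26-fold difference (two-sided exact permutation test, p = 0.1). Within the listed genes, the difference came with the RNU5 genes. When these were left out of the major sum, the log2 ratio was 1.92 ± 0.182 in control and 2.03 ± 0.231 in RUNX1 samples, with overlapping groups and a difference of 0.11 (two-sided exact permutation test, p = 0.7). The ratio of RNU4ATAC to RNU6ATAC was not analysed here.

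**Figure D3:**
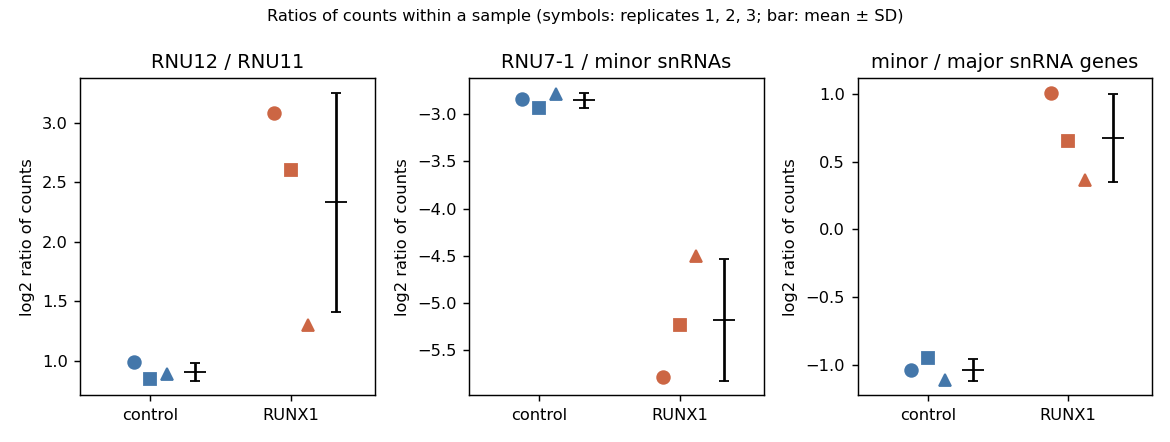
Log2 ratio of counts within a sample (y axis, with its own range in each panel and not starting at 0) for RNU12 over RNU11, RNU7-1 over the summed minor spliceosome snRNAs, and the summed minor over the summed major snRNA genes. Circles, squares and triangles are replicates 1, 2 and 3 and bars show mean ± SD. The groups are apart in each panel, with differences of 1.42, -2.32 and 1.70. The major sum holds almost no U1 or U6 counts.

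The list of major spliceosome snRNA genes held 20 names, of which 19 were used and 8 were tested. In edgeR's test 0 of the 8 were up-regulated, also when the P-value alone was used, 4 were down-regulated and 4 were not called, beside 28% and 29.6% of all tested small RNAs. The median log2 fold change of the 8 was -0.66, compared with -0.06 for all 947. All 4 down-regulated genes code for U5, the snRNA that both spliceosomes use to hold the exons. RNU5E-1 fell most, from 573 ± 15.7 to 134 ± 71.4 CPM (SD, n = 3 per group; log2 fold change -2.10, SE 0.313). RNU5F-1 and RNU5D-1 had log2 fold changes of -1.99 (SE 0.243) and -1.88 (SE 0.249). RNU5B-1 fell by 1.02 on the log2 scale (SE 0.133), from 131 ± 9.71 to 64.4 ± 5.22 CPM. RNU5A-1 had 73.1 ± 0.339 CPM in control and 59.3 ± 4.63 in RUNX1 samples, and its log2 fold change of -0.30 (SE 0.127) was below the threshold in size. With TMM factors from the classes other than microRNAs and piRNA-annotated entries, the value of RNU5A-1 was 0.0095. The U5 genes are similar in sequence, and reads that match several of them could have been split between them.

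Among the other major genes, only those of U2 and U4 had enough counts. RNU2-2P codes for U2, the counterpart of U12 at the branch point. It had 86.2 ± 18.5 CPM in control samples and 124 ± 38.7 in RUNX1 samples (SD, n = 3 per group), with a log2 fold change of 0.51 (SE 0.235, adjusted p = 0.0878, edgeR's quasi-likelihood test). RNU4-2, which codes for U4, the counterpart of U4atac, had 32.6 ± 3.30 and 38.0 ± 14.2 CPM and a log2 fold change of 0.21 (SE 0.271). The other U4 gene, RNU4-1, named after its value was seen as the last of the 8, had a log2 fold change of 0.37 (SE 0.307). By DESeq2 RNU2-2P was called up-regulated, with a log2 fold change of 0.58 (SE 0.245). Thus 5 genes of the list were altered by that tool, beside 516 of all 947 tested small RNAs. In edgeR's test RNU2-2P was also called up-regulated with RLE factors, with TMM on the classes other than microRNAs and piRNA-annotated entries, without a count filter, and without control replicate 2, RUNX1 replicate 1 or RUNX1 replicate 2, at values between 0.58 and 0.82. RNU4-2 was called up-regulated without RUNX1 replicate 3, at 0.57 (SE 0.133). With the library size alone as scaling, the values of RNU2-2P and RNU4-2 were below 0, at -0.16 and -0.52. None of the listed U1 and U6 genes passed the filter.

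Of all 34 tested snRNA entries, 2 were up-regulated and 23 down-regulated, beside 28% and 29.6% of all tested small RNAs. Their median log2 fold change was -1.61, and RNU7-1 lay near this median at -1.68. RNU12 was thus one of 2 up-regulated snRNA entries, next to the U2 pseudogene RNU2-59P, which was named after its value was seen. RNU2-59P had a log2 fold change of 1.04 (SE 0.418, adjusted p = 0.0582, edgeR's quasi-likelihood test). Of the 50 tested ribosomal RNA entries 39 were down-regulated, with a median log2 fold change of -2.32.

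**Figure D4:**
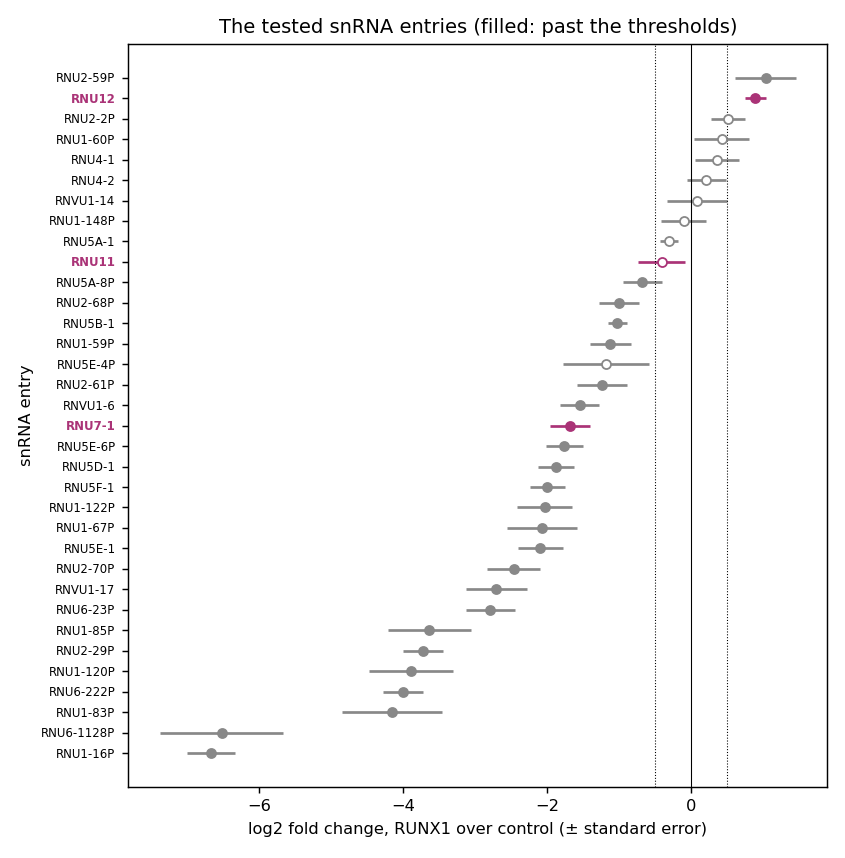
Log2 fold change of RUNX1 over control samples (x axis) for the 34 tested snRNA entries (y axis, ordered by value), with bars of ± 1 standard error; filled points were called altered, dotted lines mark the threshold of 0.5 and the tested members are coloured. RNU12 is second from the top at 0.90, RNU11 lies at -0.41 and RNU7-1 at -1.68.

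Copies and pseudogenes could take or give reads, and were counted by name. The tables list 242 such entries, 5 of RNU11, 1 of RNU12, 17 of RNU4ATAC, 41 of RNU6ATAC and 178 of RNU7. Only 26 of them had any count, 53 counts in total, and none was tested. For RNU11, RNU12 and RNU7-1 the copies held 0.033%, 0.0048% and 0.584% of the counts of member and copies together. For RNU6ATAC they held 31 counts, or 68.9%. The RNU4ATAC copies held 9 counts. A separate entry named U7 had 3 counts in all samples together.

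The annotated sequences were cut into windows of 20 bases, and each window was looked for in the transcripts of genes at other loci. None of the 115 windows of RNU11 occurred elsewhere. Of the 131 windows of RNU12, 34 occurred in 1 other gene, its pseudogene RNU12-2P. All 107 windows of RNU6ATAC occurred in other genes, 32 in number, and 30 of these are named copies. Of the 44 windows of RNU7-1, 24 occurred in 58 genes elsewhere, 55 of them named copies. Reads as short as a window, from RNU6ATAC or from the shared stretches of RNU12 and RNU7-1, would thus match more than 1 gene. How reads with several matches were treated is not given in the sources used here. Longer stretches were not searched.

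The small RNAs whose profile over the 6 samples was most like that of each member were found by the root mean square distance of log2 CPM, each profile centred on its own mean. For RNU12 these were the snoRNA SNORA71B (distance 0.0655) and miR-146b-5p (0.089). For RNU11 they were the 5S ribosomal RNA pseudogenes RNA5SP248 (0.149) and RNA5SP122 (0.15), and for RNU7-1 the U5 pseudogene RNU5E-6P (0.104) and the 5S pseudogene RNA5SP462 (0.128). Between the members the distance was 0.887 for RNU11 and RNU12, 0.616 for RNU11 and RNU7-1 and 1.40 for RNU12 and RNU7-1. These cannot be weighed against the nearest profiles, which were picked as the smallest distances among all tested small RNAs. In these profiles RNU11 was nearer to RNU7-1 than to its partner RNU12. All distances share the same libraries and scaling factors.

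Since scaling and single samples decided some calls, the fits were repeated with other settings. RNU12 lay between 0.19 and 1.21 and RNU7-1 between -2.35 and -1.38 on the log2 scale. RNU12 was not called with the library size alone or with a threshold of 1. RNU11 was below 0 in each fit, but was called in 2 of them.

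**Figure D5:**
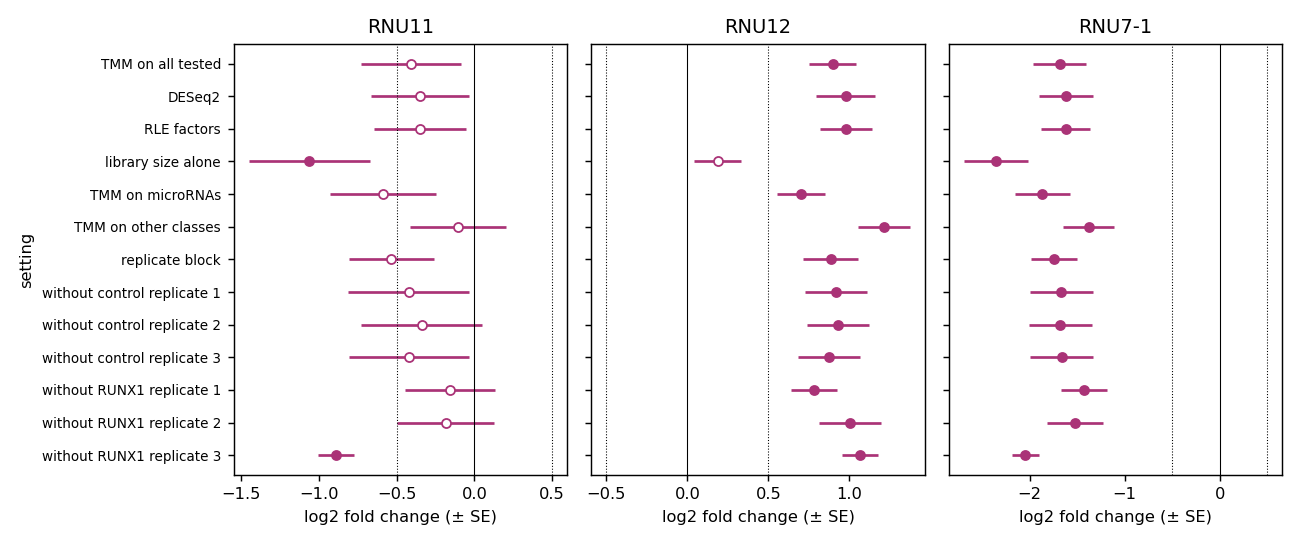
Log2 fold change of RUNX1 over control samples (x axis, ± 1 standard error, with its own range in each panel) of RNU11, RNU12 and RNU7-1 under each setting (y axis); filled points were called altered and dotted lines mark 0.5 in size. Among the settings plotted, all with the threshold of 0.5, RNU7-1 is called in each, RNU12 in each but library size alone, and RNU11 only with library size alone and without RUNX1 replicate 3.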

How the data were processed

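Small RNA of 6 K562 samples was sequenced. The authors prepared libraries with the TruSeq Small RNA kit from 1000 ng of total RNA, sequenced single reads on a HiSeq2000 and identified small RNAs on the OASIS platform with standard parameters. The submitters' processing notes name CASAVA 1.8.2 and hg19. The aligner and the treatment of reads with several matches are not given in the sources used here. The deposited values are raw counts per small RNA, without normalization. The 5 closing counter rows, at 0 counts, were left out.

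Groups and replicate numbers were taken from the sample titles. RUNX1 replicate 1 was taken as titled, although its library name holds the number 2. Small RNAs were filtered with filterByExpr (minimum count 10, minimum total 15), scaled by TMM and tested with edgeR 4.0.16 (glmQLFit, glmQLFTest; R 4.3.3, limma 3.58.1) on all 6 samples with the condition as the only term. P-values were adjusted by Benjamini-Hochberg over the 947 tested small RNAs. SE was derived as the size of the log2 fold change over the square root of F. The biological coefficient of variation was 0.181. The scripts were tested on simulated data. DESeq2 1.42.0 and other settings served as alternatives. The P-values of edgeR's test weigh the difference between the groups against the spread between these samples, moderated over all tested small RNAs. Counting floors of 3 counts cover counting error only.

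Members, gene lists and tests were chosen with earlier results of these data known. Named were the members, all RNU5 genes, the listed U1, U2, U4 and U6 gene with the highest CPM where tested, and the 2 nearest profiles of each member. Copies were to be named if they passed the filter. The ratio of RNU4ATAC to RNU6ATAC and promoter windows of the members were not analysed here, and hence 3 ratios instead of 4 were adjusted together.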

Additional observations from a re-analysis of the deposited data

How the results depend on the processing

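Of the 12 kinds of alternative setting, most left the calls of the members as reported. With a log2 fold change of 1 as threshold, 1 member was altered, since RNU12 (0.90) was then not called. By that threshold 368 of all 947 tested small RNAs were altered. With the library size alone, RNU12 was 0.19 and not called, and RNU11 was -1.06 and called. That scaling moved the median of all tested small RNAs to -0.76, compared with -0.26 for TMM on microRNAs and 0.24 for TMM on the classes other than microRNAs and piRNA-annotated entries. Leaving out 1 sample gave RNU11 values between -0.89 and -0.16, and it was called without RUNX1 replicate 3. In that fit 3 members were altered and the major list had 6 altered genes in place of 4, beside 612 of all 969 tested small RNAs. Otherwise the major list had 4 or 5. The log2 ratio of minor to major snRNAs differed by 0.11 without the RNU5 genes. Of the single genes, RNU5A-1 reversed to 0.0095 and RNA5SP122 to 0.0889 with TMM on the other classes, and RNU2-2P reversed to -0.164 and RNU4-2 to -0.516 with the library size alone. RNA5SP122 ranged from -0.907 to 0.152 with 1 sample left out. The causes were not tested.

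The replicate numbers did not pair the samples: the correlation of deviations from the group means was between -0.0904 and 0.0178 for samples with the same number and between -0.0343 and 0.0874 for others. With the number as a replicate block, 546 small RNAs were altered in place of 545, with 2 altered members (RNU11 -0.536, RNU12 0.883, RNU7-1 -1.74) and 4 altered major genes. The block changed no call of a member.

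Depth limits RNU6ATAC and the copies, which had too few counts for a test. The fits of RNU4ATAC and RNU6ATAC are not given, since the former was not analysed here and the latter failed the count filter. Without that filter RNU6ATAC was not called either.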
